A study of Mus musculus with 2 samples.

Results

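Activins and bone morphogenetic proteins (BMPs) were followed through 10 genes out of the 32589 genes in the deposited tables. The genes were selected on measured values of these same libraries, namely UMI sums by cell type and library, so every level and ratio of them is a description and none was tested. Matching by symbol found all 10 in both tables. Of these genes, 5 encode ligands (Inhba, Inhbb, Bmp2, Bmp4, Bmp6) and 4 encode receptors (Bmpr1a, Bmpr2, Acvr1, Acvr2a). Bmper encodes a secreted BMP-binding protein, so it is neither a ligand nor a receptor.

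Activins and BMPs are secreted dimers of the transforming growth factor beta superfamily. A ligand brings together type II and type I serine/threonine kinase receptors, which phosphorylate Smad2 and Smad3 for activins or Smad1, Smad5 and Smad9 for BMPs, and these join Smad4 to regulate genes such as the Id family. In the heart the pathway takes part in valve and septum formation from the endocardium, and secreted binding proteins set how much ligand reaches the receptors.

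The study sequenced RNA from nuclei of mouse hearts to ask how an antibody against PD-1, an inhibitory receptor of T cells, changes the heart. Male C57BL/6 mice, 8 weeks old at the start, received 5 mg/kg anti-mouse PD-1 antibody on days 1 and 14 of a 28-day cycle, and Control mice received PBS. Each condition has 1 library, and how many hearts went into each is not given in the sources used here. With no replicates there is no replicate error, and all intervals are 95% intervals that cover counting error only.

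The Control library held 10197 nucleus barcodes and 13177525 UMIs, with a median of 1020 UMIs per barcode. The PD-1 inhibitor library held 7967 barcodes and 10875248 UMIs, with a median of 1066. The libraries shared 48 barcodes. After filtering, 9522 Control and 7644 PD-1 inhibitor nuclei remained, and of 23 clusters, 21 were named from marker genes. The unnamed clusters held 1.85% of Control and 1.24% of PD-1 inhibitor nuclei.

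Endothelial cells made up 2816 Control and 2511 PD-1 inhibitor nuclei, fibroblasts 2475 and 1970, and cardiomyocytes 1270 and 1083. Endothelial clusters were further named endocardial, capillary, arterial, lymphatic and valve-like. The valve-like cluster was a group of 59 Control and 53 PD-1 inhibitor nuclei with Wnt9b and Hapln1 among its leading genes. The arterial and valve-like clusters were not named in every alternative clustering. Orders of levels cover 13 cell types and subtypes with at least 20 nuclei in each library, and so leave out adipocytes (154 and 16 nuclei) and glial cells (31 and 10). Levels are UMIs of a gene per 1000000 UMIs of that cell type in that library (CPM). A ratio is the log2 of the PD-1 inhibitor level divided by the Control level, after 0.5 was added to either UMI sum, and is above 0 where the PD-1 inhibitor level is higher.

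Members whose UMIs in the 2 libraries summed to at least 50 were 9 of 10 in endothelial cells, 10 in fibroblasts and 5 in cardiomyocytes. In endothelial cells 2 of those 9 were at least 1.5-fold higher with PD-1 inhibitor, Inhba and Bmp4, and 0 were lower by that fold. Over all 10704 genes with as many UMIs there, 5.89% were higher and 4.5% lower. Because the members were chosen on these libraries, nothing is read from the difference between those shares.

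Fibroblasts had 0 of 10 members past 1.5-fold in either direction, beside 5.63% of 10584 genes higher and 3.98% lower. In cardiomyocytes 1 of 5 was higher, Bmp6, and 2 were lower, Bmpr1a and Acvr1, beside 8.43% of 9173 genes higher and 8.2% lower. The median log2 ratio of the members was 0.05 in endothelial cells, where the median over all genes was 0.01. It was -0.03 in fibroblasts beside 0.00, and -0.24 in cardiomyocytes beside -0.01.

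**Figure D1:**
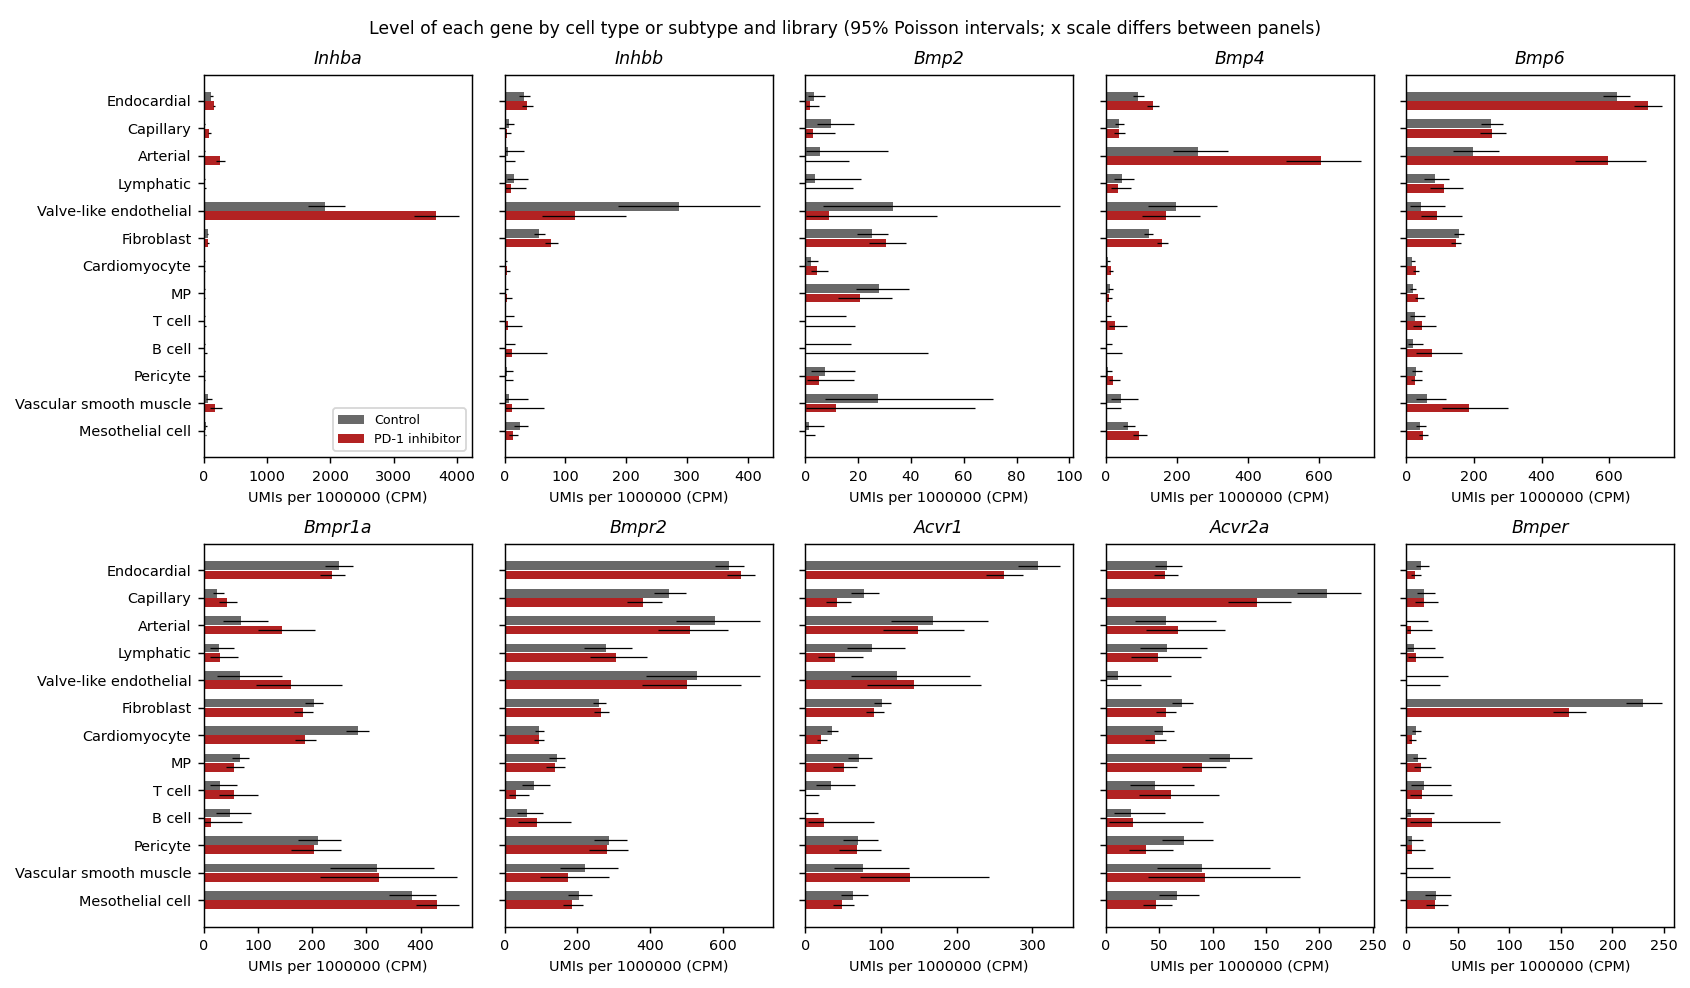
Levels of the 10 genes in CPM in 13 cell types and subtypes of the Control and PD-1 inhibitor libraries, with 95% Poisson intervals (MP, macrophages). Inhba stands highest in valve-like endothelial nuclei, at 1918 CPM in Control and 3668 CPM in PD-1 inhibitor.

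Inhba encodes the inhibin beta A subunit, which pairs with itself to form activin A (ENSMUSG00000041324, chr13:16011851-16031621, plus strand, GRCm38). In Control the order of its levels was valve-like endothelial, endocardial, vascular smooth muscle, fibroblast and mesothelial, then pericyte, macrophage (MP), capillary, cardiomyocyte and lymphatic, with 0 UMIs in arterial, B and T cells. The interval of valve-like nuclei did not overlap the next, and neither did that of fibroblasts with mesothelial cells. All other neighbours overlapped. Inhba is among the genes that set the valve-like cluster apart, so its place there follows from the clustering.

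With PD-1 inhibitor the order began valve-like, arterial, vascular smooth muscle, endocardial, capillary and fibroblast. Intervals of neighbours did not overlap between valve-like and arterial, endocardial and capillary, or fibroblast and mesothelial cells. From mesothelial cells down, through macrophages, cardiomyocytes, pericytes, T, lymphatic and B cells, neighbours overlapped.

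Endothelial cells held 360 Inhba UMIs in Control, or 121 CPM (109 to 134), and 781 in PD-1 inhibitor, or 269.7 CPM (251 to 289). The log2 ratio was 1.16 (0.98 to 1.34). The share of endothelial nuclei with an Inhba UMI did not rise with it. It was 4.26% in Control (120 nuclei) and 4.06% in PD-1 inhibitor (102 nuclei), at median depths of 898 and 951 UMIs. Thinned to 500 UMIs per nucleus, the shares were 2.98% and 2.87%. T cells, used as the background, had 0 of 240 nuclei in Control, which allows a share of up to 1.25%, and 1 of 193 in PD-1 inhibitor, at median depths of 848.5 and 884.

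The added Inhba UMIs lay in few nuclei. Limits of 10 and 30 UMIs per nucleus, chosen after the data were seen, describe this. In Control, 6 endothelial nuclei had at least 10 Inhba UMIs and together held 114 UMIs, or 31.7% of those in endothelial cells. In PD-1 inhibitor, 19 such nuclei held 600 UMIs, or 76.8%. Nuclei with 1 to 9 UMIs numbered 114 in Control, with 246 UMIs, and 83 in PD-1 inhibitor, with 181. The rise was thus confined to the nuclei with at least 10 UMIs among these endothelial nuclei, and below that limit the UMIs were fewer.

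No Control endothelial nucleus reached 30 Inhba UMIs, and its highest had 24. In PD-1 inhibitor 10 nuclei reached 30, with 476 UMIs in all and a highest of 67. Of these, 5 were in the valve-like cluster, 3 in an endocardial cluster, 1 in the capillary and 1 in the arterial cluster. All 10 also held a UMI of Wnt9b, a marker used to name the valve-like cluster, at a median depth of 2625.5 UMIs. At the limit of 10 Inhba UMIs, 4 of 6 Control and 16 of 19 PD-1 inhibitor nuclei held Wnt9b, at median depths of 1789 and 2563. Of nuclei with 1 to 9 Inhba UMIs, 27.2% in Control and 19.3% in PD-1 inhibitor held Wnt9b, at median depths of 1198.5 and 1370. Of endothelial nuclei without Inhba, 1.45% and 1.66% did, at median depths of 884.5 and 935. When at most 5 Inhba UMIs were counted in any nucleus, an alternative chosen after seeing the data, the endothelial log2 ratio was 0.04. The counting intervals treat UMIs as independent, which UMIs of 1 nucleus need not be, so the interval of the Inhba ratio is too narrow as a measure over nuclei.

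**Figure D2:**
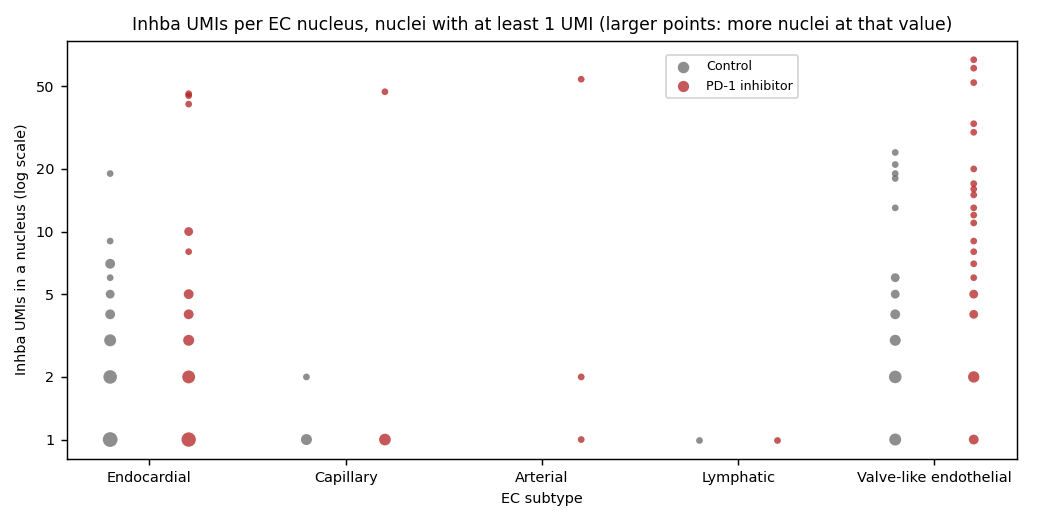
Inhba UMIs in each endothelial nucleus with at least 1 Inhba UMI, by endothelial (EC) subtype and library, on a log scale with larger points for more nuclei. The highest Control nucleus has 24 UMIs, and 10 PD-1 inhibitor nuclei have at least 30.

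In the valve-like cluster Inhba had 174 UMIs in Control, or 1918 CPM, and 410 in PD-1 inhibitor, or 3668 CPM, a log2 ratio of 0.93 (0.68 to 1.20). Nuclei with a UMI were 36 of 59 (61.0%) and 29 of 53 (54.7%), and after thinning the shares were 42.4% and 43.4%. Median depth there was 1437 UMIs in Control and 1819 in PD-1 inhibitor. The 6 valve-like markers together stood at 4904 CPM in Control and 4411 CPM in PD-1 inhibitor, none of the 6 was at 0, and Wnt9b was the most abundant at 2028 and 2058 CPM. With at most 5 Inhba UMIs counted in any nucleus, the valve-like ratio turned to -0.15. The number of valve-like nuclei was 2.10% of endothelial nuclei in Control and 2.11% in PD-1 inhibitor.

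Endocardial clusters split in direction. Endocardial nuclei held 178 Inhba UMIs in Control (117 CPM) and 259 in PD-1 inhibitor (152 CPM), a log2 ratio of 0.38 (0.10 to 0.66). Within them, cluster 2 rose from 148 to 242 UMIs, with a log2 ratio of 0.66, and cluster 10 fell from 30 to 17, with -1.26 (-2.22 to -0.37), under the minimum of 50 UMIs. In cluster 2, 5 PD-1 inhibitor nuclei with at least 10 UMIs held 152 of the 242. The endocardial value therefore depended on which of its clusters, and which few nuclei, were counted.

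Arterial nuclei held 0 Inhba UMIs in Control and 57 in PD-1 inhibitor (258 CPM), at least 15.3-fold higher against a floor of 3 counts in the Control arterial nuclei. Of the 57 UMIs, 54 were in 1 nucleus, out of 3 with any. Capillary nuclei held 7 UMIs in 6 nuclei in Control and 54 in 8 nuclei in PD-1 inhibitor, of which 47 were in 1 nucleus that also had 11 Wnt9b UMIs. Both rises rested on 1 nucleus each. Fibroblasts had 166 Inhba UMIs in Control (55.5 CPM) and 157 in PD-1 inhibitor (63.2 CPM), a log2 ratio of 0.19 (-0.14 to 0.51).

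Inhbb encodes the inhibin beta B subunit of activin B (ENSMUSG00000037035, chr1:119415465-119422248, minus strand). Its Control order was valve-like, fibroblast, endocardial, mesothelial, lymphatic, capillary, vascular smooth muscle, arterial, pericyte, macrophage and cardiomyocyte, with 0 UMIs in B and T cells. Neighbours overlapped from endocardial cells down, and valve-like and fibroblast nuclei each stood clear of the next. With PD-1 inhibitor the same 4 groups came at the top, but valve-like and fibroblast intervals overlapped. Fibroblast and endocardial, and endocardial and mesothelial, did not overlap, and arterial cells had 0 UMIs.

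Fibroblasts held 169 Inhbb UMIs in Control (56.5 CPM) and 190 in PD-1 inhibitor (76.5 CPM), a log2 ratio of 0.43 (0.13 to 0.74). Nuclei with a UMI were 4.65% and 6.14%, and 2.75% and 3.30% after thinning, beside 0 of 240 and 1 of 193 T cells. Valve-like nuclei went the other way, from 26 UMIs (287 CPM) to 13 (116 CPM), with -1.27 (-2.38 to -0.29), under the minimum of 50 UMIs. Over all endothelial cells the counts were 87 and 80, and the ratio of -0.08 (-0.53 to 0.38) showed no difference detectable at this depth.

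Bmp2, a BMP ligand gene (ENSMUSG00000027358, chr2:133552159-133562885, plus strand), had the fewest UMIs, 143 in Control and 113 in PD-1 inhibitor over all nuclei. Its Control order began valve-like, macrophage, vascular smooth muscle and fibroblast, with overlapping intervals, and the 3 valve-like UMIs make its place there imprecise. Fibroblasts stood clear of capillary nuclei, the next in order, and then came pericyte, arterial, lymphatic, endocardial, cardiomyocyte and mesothelial cells, with 0 UMIs in B and T cells. With PD-1 inhibitor fibroblasts were highest and macrophages next, and neighbours overlapped through the whole order.

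Fibroblasts held 75 Bmp2 UMIs in Control (25.1 CPM) and 76 in PD-1 inhibitor (30.6 CPM), a log2 ratio of 0.29 (-0.19 to 0.77). Macrophages held 32 and 18, a ratio of -0.41 (-1.35 to 0.45). Neither was a difference detectable at this depth. Endothelial cells held 19 (6.37 CPM) and 6 (2.07 CPM), with -1.54 (-3.23 to -0.24), which is under the minimum of 50 UMIs used for counts.

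Bmp4, a BMP ligand gene (ENSMUSG00000021835, chr14:46383520-46390669, minus strand), was highest in arterial endothelial nuclei in both libraries. In Control the order went on with valve-like, fibroblast, endocardial, mesothelial, lymphatic, vascular smooth muscle, capillary, macrophage, cardiomyocyte and pericyte, and 0 UMIs in B and T cells. Only fibroblast and endocardial, and capillary and macrophage, were neighbours without overlap among these 13 groups. With PD-1 inhibitor arterial nuclei stood clear of valve-like ones, endocardial of mesothelial, and mesothelial of capillary, while vascular smooth muscle and B cells had 0 UMIs.

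Bmp4 in endothelial cells went from 248 UMIs in Control, or 83.1 CPM (73.1 to 94.1), to 410 in PD-1 inhibitor, or 142 CPM (128 to 156). The log2 ratio was 0.77 (0.54 to 1.00), and between 0.59 and 0.90 under the 13 alternatives. Unlike for Inhba, more nuclei had a UMI as well, at 4.58% (129 nuclei) and 6.89% (173 nuclei), and 2.73% and 3.86% after thinning. T cells had 0 of 240 nuclei with a Bmp4 UMI in Control and 3 of 193 in PD-1 inhibitor.

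In arterial nuclei Bmp4 had 46 UMIs in Control, or 259 CPM (189 to 345), and 134 in PD-1 inhibitor, or 606 CPM (508 to 718), a log2 ratio of 1.22 (0.74 to 1.75). The share with a UMI went from 13.6% (18 of 132) to 31.3% (41 of 131), and after thinning from 7.58% to 18.3%, at median depths of 1064 and 1284 UMIs. Endocardial nuclei held 137 (89.9 CPM) and 226 (132 CPM), with 0.56 (0.25 to 0.87). Capillary nuclei, with 35 and 24 UMIs, showed no difference detectable at this depth.

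Outside the endothelium Bmp4 was also higher in fibroblasts, with 359 UMIs in Control (120.1 CPM) and 394 in PD-1 inhibitor (159 CPM), a log2 ratio of 0.40 (0.19 to 0.61). Fibroblast cluster 1 had 0.37 and cluster 5 had 0.50. Mesothelial cells held 50 (63.3 CPM) and 98 (94.4 CPM), with 0.57 (0.07 to 1.10). Bmp4 thus had positive ratios in these 3 cell types, none of them past 1.5-fold except that of endothelial cells.

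Bmp6, a BMP ligand gene (ENSMUSG00000039004, chr13:38345107-38500302, plus strand), was highest in endocardial nuclei in both libraries. In Control endocardial nuclei stood clear of capillary, arterial and fibroblast nuclei, and fibroblasts stood clear of the rest. These followed as lymphatic, vascular smooth muscle, valve-like, mesothelial, pericyte, T, B, macrophage and cardiomyocyte, with overlap between neighbours. With PD-1 inhibitor the arterial level overlapped the endocardial one, arterial nuclei stood clear of capillary ones, and from capillary down to pericyte all neighbours overlapped.

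Endothelial cells held 1243 Bmp6 UMIs in Control, or 417 CPM (394 to 440.4), and 1550 in PD-1 inhibitor, or 535 CPM (509 to 563), a log2 ratio of 0.36 (0.25 to 0.47). Nuclei with a UMI were 22.1% (623) and 28.4% (713), and 13.8% and 18.3% after thinning. In T cells the shares were 2.50% and 2.59%. In Control 1 endocardial nucleus held 85 of the Bmp6 UMIs, and without the top nucleus of each library, an alternative added after seeing the data, the ratio was 0.45. Macrophages held 21 Bmp6 UMIs in Control (18.3 CPM) and 31 in PD-1 inhibitor (35.7 CPM), with 0.95 (0.12 to 1.84).

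Arterial nuclei held 35 Bmp6 UMIs in Control, or 197 CPM (137 to 274), and 132 in PD-1 inhibitor, or 597 CPM (499.6 to 708), a log2 ratio of 1.59 (1.05 to 2.18). The share with a UMI went from 12.1% (16 of 132) to 31.3% (41 of 131), and after thinning from 5.30% to 17.6%. Endocardial nuclei stood at 622 and 714 CPM, with 0.20 (0.08 to 0.32). Capillary nuclei stood at 252 and 254 CPM. The ratio was larger in arterial than in endocardial nuclei without overlap of the intervals, a difference that was not tested.

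Cardiomyocytes held 43 Bmp6 UMIs in Control (17.9 CPM) and 56 in PD-1 inhibitor (27.8 CPM), a log2 ratio of 0.63 (0.04 to 1.25). It was 0.43 with the same mix of clusters and 0.11 with doublets kept. Markers of some other cell types were also higher there, and those of others were lower. The 11 endothelial markers, none at 0, summed to 494 CPM in Control and 689.5 CPM in PD-1 inhibitor, led by Pecam1 at 80.1 CPM and Ptprb at 116 CPM. The 10 fibroblast markers, none at 0, summed to 793 and 1289 CPM, led by Dcn at 354 and 669 CPM. The 8 endocardial markers, none at 0, were lower, at 721 and 635 CPM, led by Hmcn1 at 494 and 296 CPM. B cell, T cell, adipocyte and vascular smooth muscle markers also had lower sums with PD-1 inhibitor. The part of other cell types in the cardiomyocyte ratios was not tested.

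Markers of other cell types moved in the arterial cluster with Bmp4 and Bmp6, some up and some down. Among lists that were lower, capillary markers went from 2321 to 1855 CPM and cardiomyocyte markers from 3074 to 2420 CPM. Mural markers went from 624 to 439 CPM and mesothelial markers from 332 to 149 CPM. The 8 endocardial markers, all with UMIs in both libraries, summed to 3254 CPM in Control and 5889 CPM in PD-1 inhibitor, with Cytl1 the most abundant at 1855 and 3189 CPM. The 10 fibroblast markers summed to 1118 and 2777 CPM, with Dcn the most abundant at 511 and 1556 CPM and Tcf21 at 0 in Control. The 6 valve-like markers summed to 118 and 217 CPM, with Pthlh the most abundant at 73.1 and 136 CPM. Of them Wnt9b, Hapln1 and Wnt4 were at 0 in Control, and Hapln1, Wnt4 and Cldn11 in PD-1 inhibitor. The 8 arterial markers, again with none at 0, summed to 3389 CPM and 3248 CPM, led by Sema3g at 764 CPM in Control and Fbln5 at 665 CPM in PD-1 inhibitor. The part of other cell types in the arterial ratios was not tested.

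The mix of endothelial clusters also differed. Capillary nuclei were 34.6% of endothelial nuclei in Control and 27.2% in PD-1 inhibitor, and endocardial cluster 10 was 10.9% and 15.9%. With the same mix of clusters in both libraries, the endothelial ratio of Bmp6 was 0.21 and that of Inhba 0.94. Over all endothelial cells the 8 endocardial markers summed to 6573 CPM in Control and 8116 CPM in PD-1 inhibitor, with none at 0, led by Hmcn1 at 1627 CPM in Control and Npr3 at 1892 CPM in PD-1 inhibitor. The 10 fibroblast markers summed there to 2662 and 3830.0 CPM, with none at 0 and Dcn the most abundant at 1281 and 2133 CPM. Their part in the ligand ratios was not tested.

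**Figure D3:**
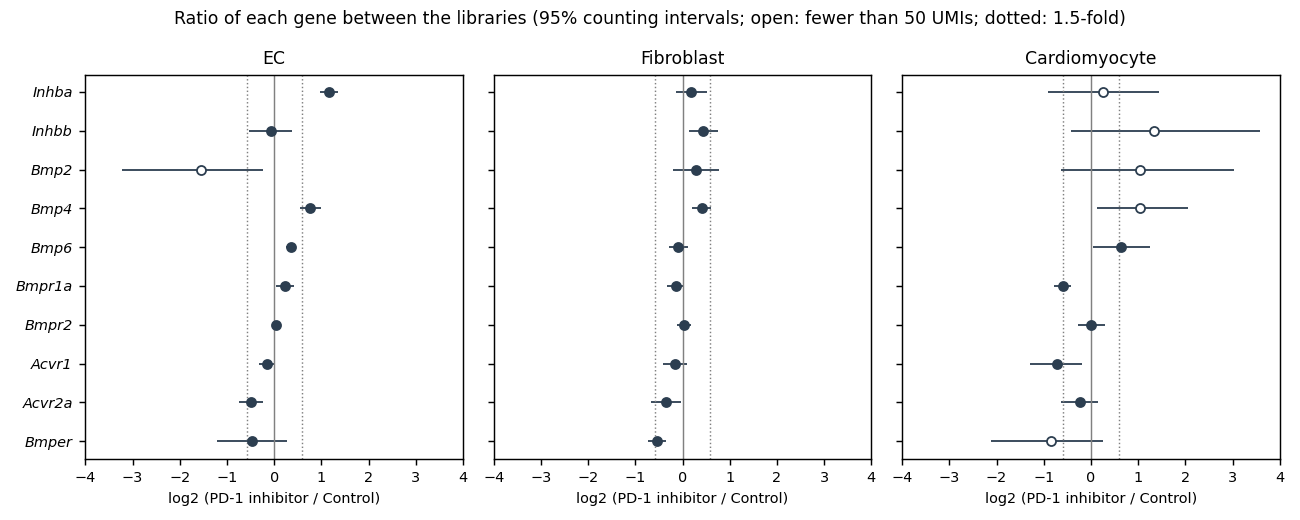
Log2 ratios of PD-1 inhibitor over Control for the 10 genes in endothelial cells (EC), fibroblasts and cardiomyocytes, with 95% binomial intervals, open points for fewer than 50 UMIs and dotted lines at 1.5-fold. In endothelial cells Inhba stands at 1.16, Bmp4 at 0.77 and Acvr2a at -0.49.

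Among the receptors, Bmpr1a encodes a type I receptor for BMPs (ENSMUSG00000021796, chr14:34410734-34503341, minus strand). In Control its order was mesothelial, vascular smooth muscle, cardiomyocyte, endocardial, pericyte and fibroblast, with overlapping neighbours, and fibroblasts stood clear of what followed. That was arterial, macrophage, valve-like, B, T, lymphatic and capillary, again with overlap. With PD-1 inhibitor mesothelial cells were highest again, cardiomyocytes came below endocardial cells and pericytes, and all neighbours overlapped.

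Cardiomyocytes held 683 Bmpr1a UMIs in Control, or 284 CPM (263 to 306), and 376 in PD-1 inhibitor, or 187 CPM (168 to 206). The log2 ratio was -0.60 (-0.79 to -0.42), and between -0.61 and -0.44 under the 13 alternatives. Nuclei with a UMI were 28.8% (366 of 1270) and 22.5% (244 of 1083), and 10.9% and 7.76% after thinning, at median depths of 1404 and 1428. T cells had 2.50% and 5.18%. The fall was seen in the counts, in the share of nuclei and in both large cardiomyocyte clusters, at -0.46 (-0.67 to -0.26) in cluster 6 and -0.29 (-0.74 to 0.16) in cluster 7, though the interval of cluster 7 includes 0.

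Other measures of the cardiomyocyte nuclei moved as well. The median share of mitochondrial UMIs was 0.834% in Control and 3.14% in PD-1 inhibitor. Cluster 6 made up 58.7% of cardiomyocyte nuclei in Control and 48.8% in PD-1 inhibitor. Genes in cardiomyocytes differed by span, and among 5 groups of equal size the shortest had a median log2 ratio of 0.27 and the longest -0.27. Bmpr1a spans 92.6 kb and falls in the longest group. With the same mix of clusters in both libraries the Bmpr1a ratio was -0.44, short of 1.5-fold. The part of span and of mitochondrial UMIs in it was not tested.

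In endothelial cells Bmpr1a went from 427 UMIs (143 CPM) to 486 (168 CPM), a log2 ratio of 0.23 (0.04 to 0.42). Endocardial nuclei stood at 249 and 236 CPM and capillary nuclei at 24.7 and 41.6 CPM, so Bmpr1a divided these subtypes in both libraries. Capillary nuclei were 34.6% of endothelial nuclei in Control and 27.2% in PD-1 inhibitor. The part of the cluster mix in the endothelial Bmpr1a ratio was not tested. Arterial nuclei rose from 12 UMIs (67.4 CPM) to 32 (145 CPM), with 1.07 (0.11 to 2.19), under the minimum of 50 UMIs, in the cluster whose other-cell markers are given with Bmp6.

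Bmpr2 encodes a type II receptor for BMPs (ENSMUSG00000067336, chr1:59763400-59879014, plus strand). Its Control order was endocardial, arterial, valve-like and capillary, then pericyte, lymphatic, fibroblast, vascular smooth muscle and mesothelial, and then macrophage, cardiomyocyte, T and B. Neighbours did not overlap between capillary and pericyte, mesothelial and macrophage, and macrophage and cardiomyocyte. With PD-1 inhibitor the same 4 endothelial subtypes came at the top, and gaps lay between fibroblast and mesothelial cells and between macrophages and cardiomyocytes.

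Endothelial cells held 1586 Bmpr2 UMIs in Control, or 532 CPM (506 to 558), and 1589 in PD-1 inhibitor, or 549 CPM (522 to 576). The log2 ratio of 0.05 (-0.06 to 0.15) bounds any change below 1.5-fold for counting error. Endocardial cluster 10 had 0.43 (0.20 to 0.67) and capillary nuclei -0.25 (-0.48 to -0.02). Fibroblasts had 0.03 (-0.13 to 0.18) and cardiomyocytes 0.01 (-0.28 to 0.29).

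Acvr1 encodes a type I receptor used by BMPs (ENSMUSG00000026836, chr2:58388644-58567157, minus strand). It was highest in endocardial nuclei in both libraries, clear of arterial nuclei, and the order went on in Control with valve-like, fibroblast, lymphatic, capillary, vascular smooth muscle, macrophage, pericyte and mesothelial. Mesothelial cells stood clear of cardiomyocytes, and T and B cells came last. With PD-1 inhibitor vascular smooth muscle came before fibroblasts, T cells came last with 0 UMIs, and all neighbours from arterial cells down overlapped.

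Endothelial cells held 605 Acvr1 UMIs in Control (203 CPM) and 531 in PD-1 inhibitor (183 CPM), with -0.14 (-0.32 to 0.03). Capillary nuclei held 72 (77.5 CPM) and 27 (41.6 CPM), with -0.88 (-1.59 to -0.24), and endocardial nuclei stood at 308 and 262 CPM, with -0.23 (-0.42 to -0.04). Cardiomyocytes held 85 (35.3 CPM) and 43 (21.3 CPM), with -0.72 (-1.29 to -0.18). The cardiomyocyte ratio was 0.23 after thinning to 500 UMIs and -0.73 with the same mix of depths, and the cause was not tested.

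Acvr2a encodes a type II receptor for activins and some BMPs (ENSMUSG00000052155, chr2:48814109-48903269, plus strand). In Control capillary nuclei were highest and clear of macrophages, and vascular smooth muscle, pericyte, fibroblast, mesothelial, endocardial, lymphatic, arterial, cardiomyocyte, T, B and valve-like followed with overlap between neighbours. With PD-1 inhibitor capillary nuclei were highest again, valve-like nuclei had 0 UMIs, and all neighbours overlapped.

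Endothelial cells held 307 Acvr2a UMIs in Control, or 103 CPM (91.7 to 115), and 212 in PD-1 inhibitor, or 73.2 CPM (63.7 to 83.8), a log2 ratio of -0.49 (-0.75 to -0.23). Capillary nuclei went from 193 UMIs (208 CPM) to 92 (142 CPM), with -0.55 (-0.93 to -0.19), while endocardial nuclei had -0.05 (-0.49 to 0.38). Capillary nuclei were also a smaller share of endothelial nuclei with PD-1 inhibitor, and with the same mix of clusters the endothelial ratio of Acvr2a was -0.31. In capillary nuclei the share with a UMI went from 13.8% to 9.66%, and after thinning from 8.94% to 5.12%, at median depths of 818 and 819. T cells had 2.92% and 5.18%. Other measures of capillary nuclei moved as well. Their median mitochondrial share was 0.743% in Control and 1.37% in PD-1 inhibitor, and the 9 capillary markers, none at 0, summed to 9179 and 12610.4 CPM, with Fabp4 the most abundant at 3399 and 5592 CPM. The part of these in the Acvr2a ratio was not tested. Ratios were also negative in fibroblasts, at -0.35 (-0.67 to -0.03), and in macrophages, at -0.36 (-0.79 to 0.05). Over all mural cells Acvr2a was lower by at least 1.5-fold. Pericytes held 40 UMIs (73.4 CPM) in Control and 15 (38.0 CPM) in PD-1 inhibitor. Vascular smooth muscle held 13 (90.1 CPM) and 8 (92.5 CPM).

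Bmper, the BMP-binding protein gene (ENSMUSG00000031963, chr9:23223076-23485200, plus strand), was highest in fibroblasts in both libraries, without overlap with the mesothelial cells that came next in these orders. Adipocytes, which are left out of them, held 11 UMIs in Control (30.5 CPM, 15.2 to 54.5) and 3 in PD-1 inhibitor (53.5 CPM, 11.0 to 156), above the mesothelial levels of 29.1 and 27.9 CPM. In Control capillary, T, endocardial, macrophage, cardiomyocyte, lymphatic, pericyte and B cells followed with overlapping neighbours, and arterial, valve-like and vascular smooth muscle nuclei had 0 UMIs. With PD-1 inhibitor all neighbours below fibroblasts overlapped as well. Bmper is among the leading genes of fibroblast cluster 1, so its place in fibroblasts follows from the clustering.

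Fibroblasts held 687 Bmper UMIs in Control, or 229.9 CPM (213 to 248), and 392 in PD-1 inhibitor, or 158 CPM (143 to 174). The log2 ratio was -0.54 (-0.73 to -0.36), short of 1.5-fold, and between -0.56 and -0.39 under the 13 alternatives. Nuclei with a UMI were 18.0% (446) and 13.2% (261), and 9.33% and 7.11% after thinning, at median depths of 1044 and 1087.5. T cells had 1.25% and 1.55%.

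Each of the 4 fibroblast clusters had a negative Bmper ratio. It was -0.42 (-0.66 to -0.19) in cluster 1, -0.42 (-0.83 to -0.02) in cluster 5, -0.70 (-1.37 to -0.09) in cluster 13 and -0.42 (-1.14 to 0.28) in cluster 17. Cluster 1 was 61.9% of fibroblasts in Control and 56.4% in PD-1 inhibitor, and cluster 5 was 26.6% and 34.7%. Bmper spans 262 kb, in the longest of 5 groups of genes by span, whose median log2 ratio in fibroblasts was -0.17, where the shortest group had 0.20. The part of span in the Bmper ratio was not tested.

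Genes in endothelial cells also differed by span. There the shortest group, up to 9.71 kb, had a median log2 ratio of 0.22 and the longest, from 83.2 kb, -0.17. Inhbb and Bmp4 fall in the shortest group and Inhba and Bmp2 in the next, while Bmp6, the 4 receptor genes and Bmper fall in the longest. The part of span in these ratios was not tested.

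A list of 67 other genes of the pathway was also measured, all present in the tables. In endothelial cells 29 had at least 50 UMIs, of which 3 were at least 1.5-fold higher (Bambi, Id2 and Atoh8) and 1 was lower (Acvr2b). Over all genes 5.89% were higher and 4.5% lower, and the median log2 ratio of the list was 0.20 beside 0.01. In fibroblasts 5 of 32 were higher and 1 lower, beside 5.63% and 3.98% of all genes, with a median of 0.15 beside 0.00. In cardiomyocytes 4 of 25 were higher and 1 lower, beside 8.43% and 8.2%, with a median of 0.12 beside -0.01.

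Other ligand genes had few UMIs. In endothelial cells Gdf10 went from 30 to 22 UMIs, Gdf6 from 4 to 32 and Inha, which encodes the inhibin alpha subunit, from 12 to 16. Gdf6 had a log2 ratio of 2.90 (1.55 to 5.00) below the minimum of 50 UMIs. In fibroblasts Inha fell from 60 UMIs (20.1 CPM) to 23 (9.26 CPM), with -1.10 (-1.88 to -0.40), while Gdf10 had -0.12 and Gdf6 0.38. In cardiomyocytes Bmp10 fell from 51 UMIs to 7, with -2.52 (-3.99 to -1.46), Inha from 95 to 65, with -0.29, and Bmp7 had 6 and 9. Of those Bmp10 UMIs, 49 in Control and 7 in PD-1 inhibitor lay in cluster 21, in 13 of its 41 and 4 of its 47 nuclei, and Bmp10 is among the leading genes of that cluster.

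Among receptors outside the members, the type I receptor genes Acvrl1 and Acvr1b had endothelial ratios of 0.07 (-0.19 to 0.33) and 0.08 (-0.37 to 0.52). Acvr1c went from 18 UMIs to 3, with -2.36 (-4.95 to -0.77), under the minimum of 50 UMIs. The 8 adipocyte markers in endothelial cells summed to 52.6 CPM in Control and 8.29 CPM in PD-1 inhibitor. Lep was at 0 in Control, and Adipoq and Ucp1 in PD-1 inhibitor. Clustered at most 5% mitochondrial UMIs, Acvr1c was among the leading genes of adipocytes. The part of adipocyte RNA in the endothelial Acvr1c ratio was not tested. The activin type II receptor gene Acvr2b fell from 40 UMIs (13.4 CPM) to 21 (7.25 CPM), with -0.87 (-1.72 to -0.09), the same direction as Acvr2a. The other type II receptor gene of the list, Amhr2, had 0 UMIs in Control and 1 in PD-1 inhibitor. In fibroblasts Acvrl1 had 0.05, Acvr1b -0.49 (-0.92 to -0.08) and Bmpr1b 0.16, and the type II receptor genes Acvr2b and Amhr2 had -0.04 and -0.28. In cardiomyocytes Acvr1b had 0.45, Acvrl1 -0.25, Bmpr1b -0.03 and Acvr2b -0.25, and Amhr2 had 2 UMIs and 0. In both cell types Bmpr1b, Acvr2b and Amhr2 were under the minimum of 50 UMIs.

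Co-receptors present ligand to the receptors, and Bambi is a decoy that lacks the kinase. In endothelial cells Eng, which encodes endoglin, went from 5580 UMIs (1870.1 CPM) to 6355 (2195 CPM), with 0.23 (0.18 to 0.28). Tgfbr3 had 0.20 and Rgmb 0.34. Bambi went from 61 UMIs (20.4 CPM) to 91 (31.4 CPM), with 0.62 (0.14 to 1.11). In fibroblasts Tgfbr3 had -0.04, Eng 0.31 and Rgmb 0.24, and in cardiomyocytes Hjv had -0.02, Tgfbr3 -0.15 and Eng 0.57. Rgmb in cardiomyocytes went from 26 UMIs to 44, with 1.00 (0.28 to 1.77).

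Extracellular binding proteins other than Bmper were measured too. In endothelial cells Crim1 had a log2 ratio of 0.14, Twsg1 -0.09 and Nbl1 0.35. In fibroblasts Twsg1 had 0.36, Nbl1 0.18 and Crim1 -0.16. Chrdl1, which encodes a chordin-like BMP antagonist, went in fibroblasts from 31 UMIs (10.4 CPM) to 91 (36.6 CPM), with 1.80 (1.22 to 2.46). Of these, 9 in 5 nuclei and 72 in 14 nuclei were in cluster 17, where the highest nucleus held 23. In PD-1 inhibitor 3 nuclei with at least 10 UMIs held 50 of the 91, so much of the rise in Chrdl1 lay in few nuclei. The UMIs of the other fibroblasts came to 16.5 CPM, against 10.4 CPM in Control. Unlike Inhba, Chrdl1 stayed past 1.5-fold with at most 5 UMIs counted per nucleus. In cardiomyocytes Crim1 had -0.02, Twsg1 -0.17 and Dand5 -0.48, and Nbl1 went from 17 UMIs to 33, with 1.19 (0.33 to 2.15).

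Of the Smads, the transducers and their inhibitors, 0 passed 1.5-fold in endothelial cells, fibroblasts or cardiomyocytes among the 7 of 8 with enough UMIs in each, beside 5.89%, 5.63% and 8.43% of all genes higher and 4.5%, 3.98% and 8.2% lower. The inhibitory Smad7 went in endothelial cells from 798 UMIs (267 CPM) to 968 (334 CPM), with 0.32 (0.19 to 0.46), and the inhibitory Smad6 had 0.32 (0.17 to 0.46). Smad1, which carries BMP signals, went from 550 (184 CPM) to 412 (142 CPM), with -0.37 (-0.56 to -0.19). In fibroblasts Smad3 had -0.28, Smad4 -0.38 and Smad1 -0.06, and in cardiomyocytes Smad4 had 0.20, Smad5 0.03 and Smad2 0.23.

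Genes known as BMP targets were read beside genes of like span. In endothelial cells 2 of 7 were past 1.5-fold higher and 0 lower, beside 5.89% and 4.5% of all genes, with a median log2 ratio of 0.39. Of these 7 targets 6 fall in the shortest group of genes, whose median was 0.22, and Atoh8 falls in a group with 0.02. The part of span in the target ratios was not tested. In endocardial nuclei 0 of 6 targets were past 1.5-fold, beside 6.59% of 9101 genes higher and 4.79% lower, with a median of 0.37 beside 0.01. In capillary nuclei it was 0 of 4, beside 8.96% of 6473 genes higher and 7.45% lower, with a median of 0.42 beside -0.02.

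Id2 in endothelial cells went from 777 UMIs (260.4 CPM) to 1170 (404 CPM), with 0.63 (0.50 to 0.77), and Atoh8 from 22 UMIs to 47, with 1.12 (0.38 to 1.94). Id3 had 0.39 (0.29 to 0.48), while Id1 had 0.10 (-0.02 to 0.22). Tmem100 had 0.44, Msx1 0.29 and Hey1 -0.18. The targets did not move by a common amount. Within clusters the Id2 differences were smaller, from 321 to 453 CPM in endocardial cluster 2 and from 733 to 953 CPM in endocardial cluster 10, and capillary nuclei stood at 59.2 and 55.4 CPM. Id2 was highest in cluster 10, which grew from 10.9% to 15.9% of endothelial nuclei, and the part of the cluster mix in its ratio was not tested.

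In fibroblasts 4 of 7 targets were past 1.5-fold higher and 0 lower, beside 5.63% and 3.98% of all genes, with a median of 0.65. All 7 fall in the shortest group of genes there, whose median was 0.20. Id2 went from 208 UMIs (69.6 CPM) to 271 (109 CPM), with 0.65 (0.38 to 0.92), and its clusters differed in direction. It rose from 52.7 to 103 CPM in cluster 1 and from 57.9 to 117 CPM in cluster 5, and fell from 212 to 99.1 CPM in cluster 13.

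Tmem100 in fibroblasts went from 149 UMIs to 206, with 0.73 (0.42 to 1.05). In cluster 5, which held most of these UMIs and grew from 26.6% to 34.7% of fibroblasts, it went from 133 to 179 CPM, and in cluster 1 it stood at 13.2 and 14.8 CPM. Id4 went from 37 UMIs to 62, with 1.00, and 32 of the 62 lay in 8 nuclei of cluster 17. Hey1 went from 15 to 42, with 1.72, and Id3 had 0.45. The part of the cluster mix in these ratios was not tested.

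Cardiomyocytes had 2 of 4 targets higher and 0 lower, beside 8.43% and 8.2% of all genes, and all 4 fall in the shortest group of genes, whose median was 0.27. Id1 went from 74 UMIs to 122, with 0.97 (0.55 to 1.41). It stood at 18.0 and 16.8 CPM in cluster 6, went from 59.5 to 105 CPM in cluster 7, and from 1 UMI to 14 in cluster 21. Cluster 7, with median mitochondrial shares of 9.62% and 8.52%, grew from 38.1% to 46.9% of cardiomyocyte nuclei, and its part in the Id1 ratio was not tested. Id2 went from 45 UMIs to 65, with 0.78 (0.22 to 1.37), Id3 had 0.52 and Tmem100 -0.04.

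Genes with the pattern most like each member were found among 11480 genes by Pearson correlation of log2(CPM + 1) over 26 points, which are 13 cell types and subtypes in 2 libraries. The points of 1 library share its depth, and no significance is attached to r. Inhba was most like Ltbp2 (r = 0.81), Olfml2a (0.79) and Fgf2 (0.79). Bmp4 was most like Rab3d (0.90), Cdc42ep5 (0.88) and Cttnbp2 (0.87), and Bmp6 most like Grasp (0.85), Sncaip (0.84) and Rdx (0.83). For Inhbb the closest genes were Adamts5 (0.79), Ptgfrn (0.79) and Trim32 (0.78), and for Bmp2 they were Creb5 (0.79), Snap23 (0.74) and Nav1 (0.73). Among receptors Bmpr1a was closest to Magi2 (0.85), Meis1 (0.84) and Gata4 (0.84), and Bmpr2 to Ehd2 (0.89), Lrp5 (0.89) and Tek (0.87). Acvr1 was closest to Upp2 (0.92), Zdhhc1 (0.87) and Tcaf1 (0.85), and Acvr2a to Cdc26 (0.86), Zmym6 (0.86) and Mfhas1 (0.86). Bmper was most like Olfml1 (0.87), Ifi205 (0.85) and Cpxm1 (0.81).

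Promoters of 9 of the 10 members were matched in the RefSeq set for GRCm38.p6, Bmp2 being the other. Each is 300 bases, from 250 before to 50 after a start in that set. For Bmp6, Bmpr1a, Bmpr2 and Acvr1 that start differs from the start of the gene span given with each gene, which comes from GENCODE. Those of the 3 ligand genes whose endothelial ratios had intervals above 0 are shown, with motif matches in capitals. The Inhba promoter lies at chr13:16011601-16011900 on the plus strand, that of Bmp4 at chr14:46390620-46390919 on the minus strand and that of Bmp6 at chr13:38345466-38345765 on the plus strand.
Inhba: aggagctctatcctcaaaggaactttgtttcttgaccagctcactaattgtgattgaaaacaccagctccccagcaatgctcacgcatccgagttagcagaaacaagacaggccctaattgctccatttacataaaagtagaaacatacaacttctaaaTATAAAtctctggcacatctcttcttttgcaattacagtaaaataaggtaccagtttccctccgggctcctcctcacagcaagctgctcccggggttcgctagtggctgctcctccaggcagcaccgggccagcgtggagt
Bmp4: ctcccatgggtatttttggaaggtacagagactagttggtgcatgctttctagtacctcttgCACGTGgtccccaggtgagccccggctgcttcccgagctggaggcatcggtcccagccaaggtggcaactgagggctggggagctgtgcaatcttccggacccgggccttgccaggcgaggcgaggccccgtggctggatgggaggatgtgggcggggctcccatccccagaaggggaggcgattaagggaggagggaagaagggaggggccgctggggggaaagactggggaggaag
Bmp6: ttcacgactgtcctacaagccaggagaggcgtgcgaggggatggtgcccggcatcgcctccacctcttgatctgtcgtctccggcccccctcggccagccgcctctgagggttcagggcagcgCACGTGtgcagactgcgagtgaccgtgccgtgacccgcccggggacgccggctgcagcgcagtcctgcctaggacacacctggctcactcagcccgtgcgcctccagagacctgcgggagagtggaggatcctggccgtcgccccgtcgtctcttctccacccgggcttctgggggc
The capitals mark TATAAA in Inhba and CACGTG in Bmp4 and Bmp6. On both strands of all 32851 promoters, 13.6% held TATAAA or its reverse complement TTTATA, and 7.15% held CACGTG, which is its own reverse complement. Inhba was the only member of the 9 with the former, and Bmp4 and Bmp6 were those with the latter. GGCGCC was in 11.9% of promoters and in Bmpr1a and Bmpr2. No match in the 9 members was found for TGACTCA or TGAGTCA (5.20% of promoters), TGACGTCA (1.79%), GTCTAGAC (0.213%), or AGATAA or TTATCT (11.2%). A match describes letters in these windows and does not show a binding site.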

How the data were processed

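The deposited matrices hold raw UMI counts per gene and nucleus barcode for 1 Control and 1 PD-1 inhibitor library, made by the authors with a GEXSCOPE single-nucleus kit. The submitters' processing notes name GRCm38 and mm10, while the aligner, counter, annotation and barcode calling are not given in the sources used here. Barcodes below 200 detected genes or above 20% mitochondrial UMIs were dropped, and Scrublet doublets were removed in each library (592 and 308). Counts were scaled to 10000, and 2000 variable genes, 30 components and 15 neighbours were used for Leiden clustering at resolution 1 (scanpy 1.11.5, leidenalg 0.10.2, numpy 2.4.6, scipy 1.17.1). A cluster was named from marker lists when at least 3 markers were detected. It was left unnamed where its leading genes held more markers of another list, or where at least 50% of its nuclei held a cycling marker or a further type had 50% or more of its list detected. UMIs were summed by cell type and library. Levels have exact Poisson intervals, shares of nuclei exact Clopper-Pearson intervals, limits for a count of 0 a floor of 3 counts, and log2 ratios binomial intervals conditional on both sums. With 1 library per condition no test was made. Counts of genes past 1.5-fold used genes whose UMIs over the 2 libraries reached 50. Gene spans came from GENCODE annotation of GRCm38. The calculations were tested on simulated data. Simulated counts for the ratios were independent, so that test does not cover UMIs gathered in few nuclei.

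The members and lists were chosen with earlier results of these data known. Of the other pathway genes, the text names in each role the 3 with most UMIs in the cell type described and any past 1.5-fold. It also names the remaining BMP targets with enough UMIs in endothelial cells. For each member the 3 genes with the highest correlation were taken from those with at least 200 UMIs. Alternatives changed the filters, the doublet removal, the clustering resolution, the denominator, the centring, the depth per nucleus, and the mix of clusters and of depths. Alternatives that left out the top nucleus, or counted at most 5 UMIs per nucleus, were chosen after seeing the data.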

Additional observations from a re-analysis of the deposited data

How the results depend on the processing

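Of 5 main ratios, Bmp4 in endothelial cells (0.59 to 0.90), Bmper in fibroblasts (-0.56 to -0.39) and Bmpr1a in cardiomyocytes (-0.61 to -0.44) kept their direction and stayed within their counting intervals under the 13 alternatives. Inhba in endothelial cells, at 1.16, ranged from 0.043 to 1.27. It was 0.58 as a mean over nuclei, 0.66 after thinning to 500 UMIs, 0.94 with the same mix of clusters, and 0.043 with at most 5 UMIs counted per nucleus, an alternative chosen after seeing the data. Bmp6 in endothelial cells, at 0.36, was 0.21 with the same mix of clusters. The cause was not tested.

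Members higher in endothelial cells numbered 2, against 1 past 2-fold and 1 with at most 5 UMIs per nucleus. Of all genes, 5.89% were higher there, against 0.81% past 2-fold and 5.70% with at most 5 UMIs per nucleus. Members lower there numbered 0, against 1, Bmp2, at a minimum of 20 UMIs, beside 4.5% and 6.64% of all genes. The other pathway genes higher in endothelial cells numbered 3, against 7 at a minimum of 20 UMIs and 1 past 2-fold. The shares of all genes were 5.89%, 8.12% and 0.81%. Other pathway genes lower there numbered 1, against 4, Id4 among them, at a minimum of 20 UMIs and 0 past 2-fold. Of all genes, 4.5%, 6.64% and 0.80% were lower at these settings. In cardiomyocytes 1 member was higher, against 2 at a minimum of 20 UMIs, with Bmp4 added, and 0 past 2-fold. The shares of all genes higher were 8.43%, 10.9% and 1.30%. Members lower in cardiomyocytes numbered 2, against 3 at that minimum, with Bmper added, and 0 past 2-fold. With at most 5 UMIs per nucleus 1 was lower, without Bmpr1a. The shares of all genes lower at these 4 settings were 8.2%, 10.4%, 1.08% and 7.75%. In fibroblasts other pathway genes higher numbered 5, against 6 at a minimum of 20 UMIs and 3 past 2-fold, beside 5.63%, 7.69% and 0.83% of all genes. Those lower numbered 1, Inha, against 2 at a minimum of 20 UMIs, beside 3.98% and 6.15%. In cardiomyocytes other pathway genes higher numbered 4, against 2 past 2-fold and 5, with Eng added, after the median of all genes was subtracted. The shares of all genes were 8.43%, 1.30% and 8.73%.

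Sign changes were counted only for ratios of at least 1.5-fold in the main setting, and there were 4 such values. Acvr1 in cardiomyocytes was 0.23 after thinning. Bmp6 in mural cells was -0.24 with at least 500 genes per nucleus and -0.018 without the top nucleus of each library. Inhba in valve-like nuclei was -0.15 with at most 5 UMIs per nucleus. The cause was not tested. Beside those 4 sign changes, 38 of the 819 values for the 67 other ratios lay outside the counting interval of the main value. Of these 38, 14 were above it and 24 below it. The arterial and valve-like clusters varied with the settings. At resolution 0.5 neither was named, and with at most 5% mitochondrial UMIs or with doublets kept no arterial cluster was. The valve-like cluster held 112 nuclei in the main setting and 213 at resolution 2. It held 561 with at least 500 genes per nucleus, 389 with at most 5% mitochondrial UMIs and 525 with doublets kept. Levels and orders of these subtypes come from the main setting. No paired analysis was possible because each condition has 1 library. Sums under about 50 UMIs give wide intervals, and differences there were mostly not detectable.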
